A study of Mus musculus with 18 samples.

Results

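The comparison described here is the difference that a high-fat diet made in mouse liver when it was averaged over 3 exposure settings. All 18 arrays of the series entered it, 9 from livers of mice on the high-fat diet (HFD) and 9 from livers of mice on the low-fat diet (LFD), and each array was placed by the diet and the compound in its title. The mice were male C57BL6 animals that ate their diet ad libitum for 12 weeks, from 6 to 18 weeks of age. The HFD supplied 45% of energy from fat and the LFD supplied 10%. The 6 groups of 3 biological replicates were HFD containing PFOS, LFD containing PFOS, HFD containing PFNA, LFD containing PFNA, HFD with no compound, and LFD with no compound. PFOS, perfluorooctane sulfonic acid, and its carboxylic relative PFNA, perfluorononanoic acid, are persistent perfluorinated surfactants, and no dose is stated for them. The labels do not say whether a sample is 1 animal or a pool, and the p-values measure the spread between these samples.

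Dietary fat reaches the liver as fatty acids and lipoprotein remnants, and hepatocytes oxidise it, store it as triglyceride in lipid droplets or export it. The nuclear receptor PPARA senses fatty acids and drives their oxidation, and perfluorinated acids are known activators of it in mice. SREBP transcription factors control the synthesis of cholesterol and of fatty acids, and their processing is held back when sterol is plentiful. The male pattern of mouse liver expression depends on pulses of growth hormone acting through STAT5B, and obesity is known to blunt growth hormone secretion. A bulk liver array cannot tell a smaller number of cells of one type from less RNA per cell.

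Values are deposited signals per probe, read as log2, and every difference below is HFD minus LFD on that scale, from 1 linear model in limma with diet and exposure as additive terms. A probe was called at a Benjamini-Hochberg adjusted p under 0.05 over all 34472 probes. Array medians ranged from 4.43 to 4.59. The arrays carry no detection call here, so a signal near or below the median of the probe means, 4.48, is not shown to be above background. Hepatocyte markers were high on every array, with a mean level of 12.17 to 12.49 on HFD arrays and 12.17 to 12.48 on LFD arrays over 13 measured genes. The first principal component held 17.9% of the variance and set 5 arrays apart from the other 13. These were the 3 arrays of HFD with PFOS, LFD with PFOS replicate 3 and HFD with PFNA replicate 3, and they scored 27.8 to 38.6 while the others scored −22.9 to −8.08. Because 4 of these 5 arrays are HFD arrays, differences that move by more than 1.5 times without them are also given without them. That leaves 5 HFD arrays and 8 LFD arrays, with no HFD array under PFOS, so the PFOS groups then no longer inform the diet difference.

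One probe was called for diet. Probe 17546790, to which the annotation used here assigns no gene, rose on the HFD by 0.77 (SE 0.094, 95% interval 0.58 to 0.97, limma adjusted p = 0.00343, n = 9 arrays per diet). Under PFOS its signal was 9.32, 9.26 and 9.23 on the HFD, against 8.43, 8.33 and 8.63 on the LFD. Under PFNA it was 9.09, 8.74 and 8.94 on the HFD, against 7.76, 8.10 and 8.40 on the LFD. With no compound it was 9.35, 9.44 and 9.60 on the HFD, against 8.51, 9.10 and 8.76 on the LFD. The HFD and LFD arrays did not overlap within any of the 3 exposures, although over all 18 arrays the lowest HFD value of 8.74 lay below the highest LFD value of 9.10. The difference was 0.81 under PFOS, 0.84 under PFNA and 0.67 with no compound. Without the 5 arrays apart on the first component it was 0.74, and the probe was no longer called (limma adjusted p = 0.960).

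That single call is 0.00290% of the probes tested. At an unadjusted p under 0.05 the fit held 2886 probes, 8.37% of those tested, with 1401 positive and 1485 negative differences (4.06% and 4.31%). Counted once per gene, with the brightest probe standing for the gene, 8.91% of genes were past that level, and 899 of 22180 genes had a positive difference (4.05%) and 1078 a negative one (4.86%). The median difference over all genes was −0.0078. None of the genes described from here on was called, and the lowest adjusted p among the 665 measured genes of the lists below was 0.453. Each is therefore given by its values, and a count of members past an unadjusted p under 0.05 stands beside those shares of all genes.

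Among genes with an established name, the 2 smallest p-values belonged to genes with lower signals on the HFD. Olfr1076, an olfactory receptor gene, had signals of 2.91 to 3.67 on the HFD (median 3.42), against 3.73 to 4.19 on the LFD (median 3.95). It was one of 2 genes whose HFD and LFD arrays did not overlap at all, which are 0.00902% of all genes and, as 2 probes, 0.00580% of all probes, but its signal lay below the median of the array and its adjusted p was 0.286. Camk2b, a calcium-dependent kinase subunit, had signals of 4.33 to 5.52 (median 5.35) on the HFD and 5.49 to 5.96 (median 5.72) on the LFD. Its difference of −0.55 (SE 0.11) came closest to a call after Olfr1076, with an adjusted p of 0.401, and was −0.30 without the 5 arrays.

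The other 8 negative genes of smallest p had an adjusted p of 0.453 each. Lifr, the receptor for leukaemia inhibitory factor, measured 9.39 to 10.35 (median 9.91) on the HFD and 9.84 to 10.81 (median 10.37) on the LFD, a difference of −0.50 (SE 0.11). Cry1, a repressor in the circadian clock, measured 4.57 to 5.45 (median 5.15) on the HFD and 5.28 to 6.10 (median 5.79) on the LFD, and its difference of −0.54 (SE 0.12) was the same to 2 decimals without the 5 arrays. The groups of both genes overlapped. Ces3b, a carboxylesterase of the endoplasmic reticulum, differed by −0.66 (SE 0.15), and Ugt2b1, which conjugates substrates with glucuronic acid, differed by −0.76 (SE 0.18). Bmi1, Slc22a6, Mief1 and Fgf1 completed the 10 negative genes of smallest p, with differences between −0.41 and −0.34. Slc22a6 measured 3.96 to 4.41 on the HFD, below the median of the array, and 4.38 to 4.98 on the LFD. Without the 5 arrays the difference was −0.45 for Ugt2b1, −0.21 for Mief1 and −0.24 for Fgf1.

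On the positive side Ndufaf2, an assembly factor of respiratory complex I, measured 5.80 to 6.14 (median 5.98) on the HFD and 5.33 to 5.87 (median 5.69) on the LFD, and its difference of 0.36 (SE 0.076) had the smallest p. Gal3st1, the sulfotransferase that makes sulfatide, measured 4.86 to 6.89 (median 6.09) on the HFD and 4.57 to 6.24 (median 5.76) on the LFD, a difference of 0.56 (SE 0.12). Both genes had a higher mean on the HFD in each exposure, with overlapping arrays. Cyp2a22, a cytochrome P450, differed by 0.68 (SE 0.16), Mgst3, a membrane-bound glutathione transferase, by 0.55 (SE 0.12), Car2, a carbonic anhydrase, by 0.77 (SE 0.18), and Nt5e, the ectonucleotidase CD73, by 0.69 (SE 0.16). Cyp2a22 kept a difference of 0.68 without the 5 arrays, whereas that of Nt5e was 0.37 and that of Car2 0.48 there. Enc1, Zfp781 and Olfr97 differed by 0.45 to 0.50, and Cd36 is described with fatty acid uptake. Olfr97, at 1.96 to 2.95 on the HFD and 1.73 to 2.20 on the LFD, lay below the median of the array. Zfp781, at 4.25 to 5.53 on the HFD and 4.13 to 5.21 on the LFD, lay on both sides of it.

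**Figure D1:**
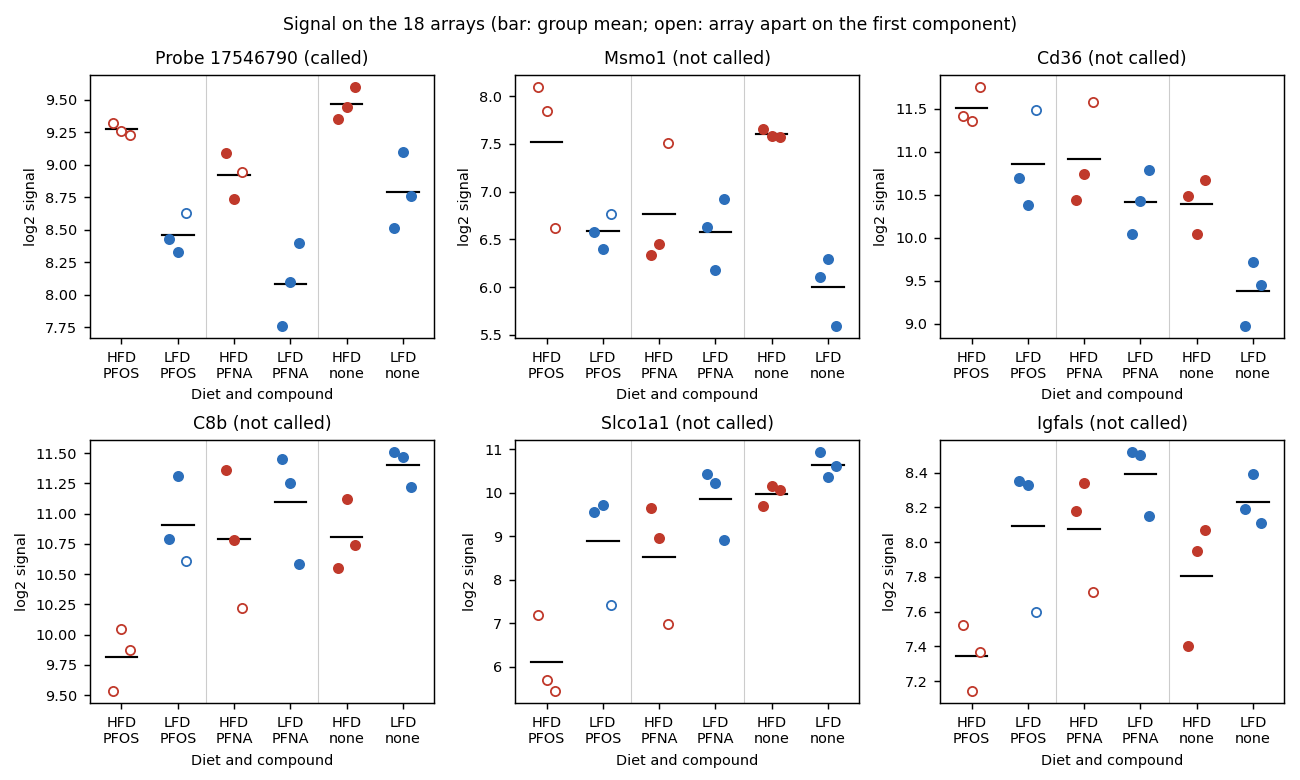
Signal (deposited log2 value, y axis, own scale in each panel) of the called probe 17546790 and 5 genes on the 18 arrays, by diet and compound. Red points are HFD arrays, blue points LFD arrays, bars the means of 3 arrays, and open points the 5 arrays apart on the first component. The HFD points of the called probe lie above the LFD points within each exposure, while those of Msmo1 do so fully with no compound, at 7.57 to 7.66 against 5.59 to 6.29.

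Genes of cholesterol synthesis had the highest median difference of the 39 lists. Of 16 measured members, 15 had a positive difference and 10 of these had an unadjusted p under 0.05 (62.5% of the list, beside 4.05% of all genes), while none was negative at that level. The list median was 0.37, and 0.26 without the 5 arrays. By exposure it was 0.56 under PFOS, 0.14 under PFNA and 0.40 with no compound. Under PFNA the mean level of the list was 8.018 on HFD replicate 3, one of the 5 arrays. HFD replicates 1 and 2 did not exceed the LFD range there, 7.402 to 7.564. With no compound the level was 7.868 to 7.959 on the HFD and 7.139 to 7.222 on the LFD. Without the 5 arrays, a higher level on the HFD was thus seen only with no compound. The members span the pathway from acetyl units to cholesterol.

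Early in the pathway, Hmgcs1, which makes HMG-CoA from acetyl units, measured 8.08 to 10.57 (median 9.65) on the HFD and 7.93 to 9.50 (median 8.47) on the LFD. Its difference was 0.93 (SE 0.25, interval 0.42 to 1.45). Fdps, which makes farnesyl diphosphate, measured 5.88 to 9.58 (median 7.58) on the HFD and 5.96 to 7.84 (median 6.39) on the LFD, a difference of 1.05 (SE 0.31), or 0.64 without the 5 arrays. The diets overlapped for both genes. HFD with PFNA replicates 1 and 2 lay within or below the LFD values, and LFD with PFOS replicate 3 lay within the HFD values. Pmvk, phosphomevalonate kinase, differed by 0.39 (SE 0.13).

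At the step to squalene epoxide, Sqle measured 4.90 to 6.92 (median 6.59) on the HFD and 4.60 to 5.64 (median 5.15) on the LFD. Its difference was 1.03 (SE 0.27), made of 1.02 under PFOS, 0.17 under PFNA and 1.91 with no compound. Among the enzymes that trim lanosterol to cholesterol, Cyp51, the lanosterol demethylase, differed by 0.91 (SE 0.26), or 0.60 without the 5 arrays. Nsdhl, another of these enzymes, differed by 0.65 (SE 0.23). Msmo1, a methylsterol oxidase, measured 6.34 to 8.10 (median 7.57) on the HFD and 5.59 to 6.92 (median 6.40) on the LFD. Its difference was 0.91 (SE 0.23, interval 0.44 to 1.38). With no compound its 3 HFD arrays lay at 7.66, 7.58 and 7.57, against 6.11, 6.29 and 5.59 on the LFD. Dhcr7, Hsd17b7 and Sc5d, which act late in the pathway, differed by 0.42, 0.35 and 0.26, and by 0.15, 0.10 and 0.17 without the 5 arrays. Ebp, the sterol isomerase, was the exception at −0.028, or −0.0063 without them.

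The proximal promoters of 4 of these enzymes are shown because SREBP binds sterol elements beside CCAAT boxes, the sites of NF-Y, in promoters of this pathway. They are the 250 bases before the first base of each gene in RefSeq (GRCm38.p6), written along the gene. They lie at chr13:119690101-119690350 on the plus strand for Hmgcs1, chr8:64733579-64733828 on the minus strand for Msmo1, chr5:4104698-4104947 on the minus strand for Cyp51 and chrX:72918271-72918520 on the plus strand for Nsdhl. Capitals mark the CCAAT box on either strand, where ATTGG is its reverse, and the sterol element TCACNCCAC.
Hmgcs1: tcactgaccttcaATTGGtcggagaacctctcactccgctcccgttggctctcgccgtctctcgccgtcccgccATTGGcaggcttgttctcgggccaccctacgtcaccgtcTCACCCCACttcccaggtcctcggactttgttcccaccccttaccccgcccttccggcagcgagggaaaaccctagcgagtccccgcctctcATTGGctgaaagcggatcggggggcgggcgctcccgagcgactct
Msmo1: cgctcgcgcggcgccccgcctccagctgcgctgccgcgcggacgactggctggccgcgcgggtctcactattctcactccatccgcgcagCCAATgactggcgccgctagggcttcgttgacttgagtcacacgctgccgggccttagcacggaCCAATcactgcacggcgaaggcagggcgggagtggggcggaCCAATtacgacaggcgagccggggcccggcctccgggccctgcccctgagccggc
Cyp51: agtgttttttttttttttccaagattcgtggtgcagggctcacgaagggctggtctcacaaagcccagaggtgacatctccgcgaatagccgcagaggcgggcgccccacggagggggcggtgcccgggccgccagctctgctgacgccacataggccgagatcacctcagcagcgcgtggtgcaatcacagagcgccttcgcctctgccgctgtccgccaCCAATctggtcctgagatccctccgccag
Nsdhl: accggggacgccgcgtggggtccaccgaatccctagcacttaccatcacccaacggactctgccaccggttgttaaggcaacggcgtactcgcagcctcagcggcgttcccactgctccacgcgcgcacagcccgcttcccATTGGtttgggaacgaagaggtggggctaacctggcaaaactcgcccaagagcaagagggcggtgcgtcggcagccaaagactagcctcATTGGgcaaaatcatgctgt
Hmgcs1 and Msmo1 hold 3 CCAAT boxes each, Nsdhl 2 and Cyp51 1. The only match to the sterol element among these 4 is that of Hmgcs1, which overlaps none of its CCAAT boxes. The table held promoters for 13 of the 16 measured genes, with 16 starts, and 13 of these starts (81.2%) carried at least 1 CCAAT box, against 33.8% of all 32851 promoters. The sterol element stood in 1 of the 16, against 1.05% of all promoters. A match is a description of the letters and not a binding site.

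Around the pathway, Insig1, the sterol-regulated anchor that holds SREBP in the endoplasmic reticulum, measured 9.28 to 11.26 (median 9.96) on the HFD and 8.67 to 9.94 (median 9.51) on the LFD. Its difference was 0.65 (SE 0.18), and 0.55 without the 5 arrays. Scarb1, the receptor for high-density lipoprotein, differed by −0.28 (SE 0.12), and −0.025 without them. These were the 2 members past an unadjusted p under 0.05 among 16 measured genes of sterol sensing, uptake and efflux, whose median difference was 0.032.

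The male-predominant liver genes had the lowest median difference of the lists, −0.45, and −0.34 without the 5 arrays. Of 18 measured members, 16 had a negative difference and 11 of these had an unadjusted p under 0.05 (61.1% of the list, beside 4.86% of all genes). Hsd3b5, a steroid-metabolising enzyme of male mouse liver, measured 2.39 to 8.05 (median 6.71) on the HFD and 3.83 to 9.15 (median 8.52) on the LFD, a difference of −2.03 (SE 0.60). Slco1a1, an uptake transporter for organic anions and bile acids, measured 5.43 to 10.15 (median 8.95) on the HFD and 7.41 to 10.94 (median 10.23) on the LFD, a difference of −1.60 (SE 0.41). The lowest values of both genes on either diet were on the 5 arrays apart, and without those arrays the differences were −0.77 for Hsd3b5 and −0.62 for Slco1a1.

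With no compound, where none of the 5 arrays lies, Slco1a1 measured 9.70, 10.15 and 10.07 on the HFD and 10.94, 10.35 and 10.62 on the LFD. Hsd3b5 measured 7.43, 7.51 and 8.05 there on the HFD and 8.78, 8.74 and 8.52 on the LFD. The diets did not overlap for either gene in that exposure. C8b, a subunit of complement, measured 9.53 to 11.36 (median 10.55) on the HFD and 10.58 to 11.51 (median 11.25) on the LFD, a difference of −0.66 (SE 0.17), or −0.34 without the 5 arrays. C6, another complement component, differed by −0.47 (SE 0.14) and by −0.41 without the 5 arrays, and Susd4, a complement inhibitor, by −0.47 (SE 0.13) and by −0.45 without them.

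Further members were Cyp7b1, an oxysterol hydroxylase, at −0.46, Mup21, a major urinary protein, at −0.48, or −0.24 without the 5 arrays, and the fatty acid hydroxylase Cyp4a12a at −0.25. Its relative Cyp4a12b differed by −0.45, made of −0.013 under PFOS, −0.090 under PFNA and −1.24 with no compound, and by −0.72 without the 5 arrays. The Cyp4a12 and Mup genes are near-identical families, and their probes may share signal. Moxd1 and Ugt2b38 differed by −0.83 and −0.60, but most of their signals lay below the median of the array. Elovl3, a fatty acid elongase, and Cyp2d9, a steroid hydroxylase, went the other way at 0.20 and 0.020. Without the 5 arrays both of these turned negative, at −0.066 for Elovl3 and −0.18 for Cyp2d9.

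Genes of growth hormone signalling had a median difference of −0.18 over 10 members, and −0.037 without the 5 arrays. Of these members 6 had a negative difference and 4 a positive one, the largest at 0.51. The 5 members with an unadjusted p under 0.05 were all negative (5 of 10, beside 4.86% of all genes). Igfals, the secreted partner that holds insulin-like growth factor in the circulation, measured 7.14 to 8.34 (median 7.71) on the HFD and 7.60 to 8.52 (median 8.33) on the LFD, a difference of −0.50 (SE 0.13). Igf1, the growth factor itself, measured 9.87 to 10.34 (median 10.17) on the HFD and 10.12 to 10.77 (median 10.44) on the LFD, a difference of −0.31 (SE 0.080). The diets overlapped for both genes, and without the 5 arrays the differences were −0.29 for Igfals and −0.33 for Igf1.

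The STAT5-induced feedback inhibitors Socs2 and Cish differed by −0.72 (SE 0.31) and −0.60 (SE 0.19), and by −0.83 and −0.60 without the 5 arrays. Stat5b, the transcription factor, differed by −0.21 and by −0.033 without them, whereas the growth hormone receptor Ghr differed by −0.15 with an interval that included 0, and by −0.041 without them. The promoter of Igfals is shown because STAT5 binds sites of the form TTCNNNGAA. The table holds 3 starts for Igfals, and the first is printed, at chr17:24877594-24877843 on the plus strand (RefSeq, GRCm38.p6), with the match in capitals.
Igfals: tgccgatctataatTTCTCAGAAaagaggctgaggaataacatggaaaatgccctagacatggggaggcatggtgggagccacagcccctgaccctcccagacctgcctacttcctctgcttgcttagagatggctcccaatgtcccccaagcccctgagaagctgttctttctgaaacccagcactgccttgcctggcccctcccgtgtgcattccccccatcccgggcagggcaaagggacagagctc
The match begins 236 bases before the start and reads the same form on both strands. Such a match stood in 4 of 15 promoters of the list (26.7%), which belong to 2 of 9 genes, in 1 of 14 promoters of the male-predominant genes (7.14%) and in 7.02% of all promoters.

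**Figure D2:**
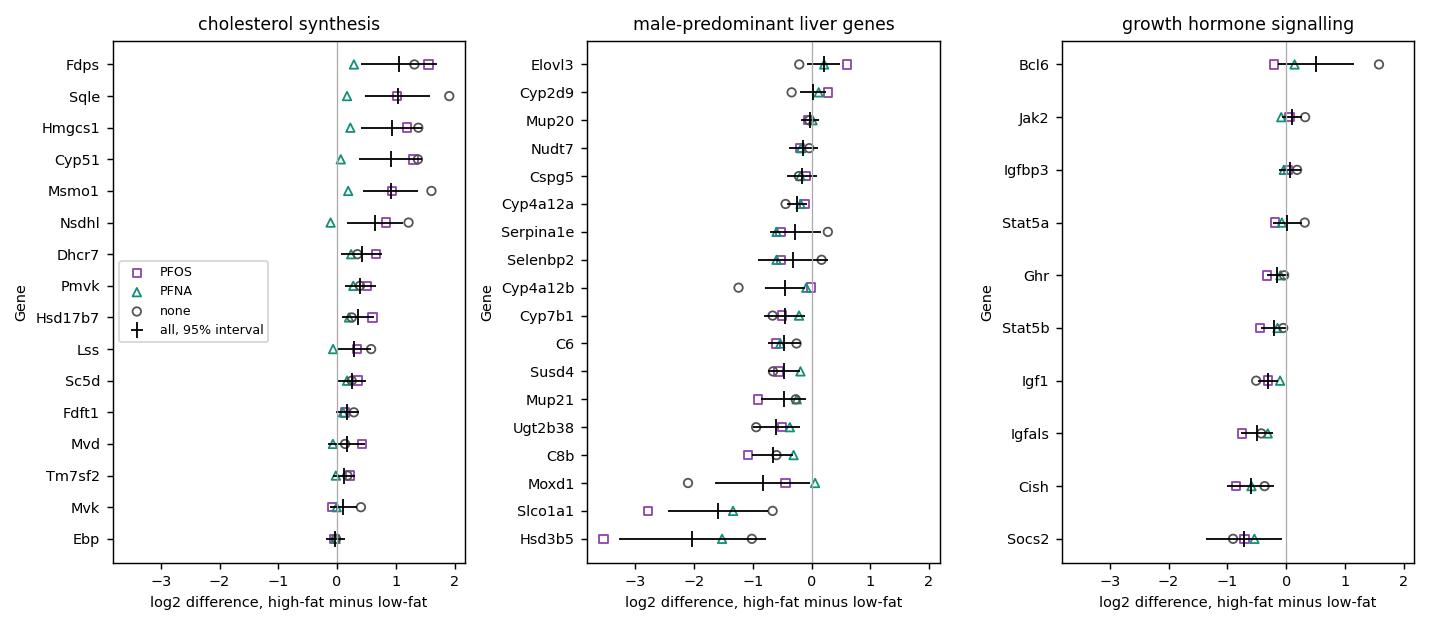
Log2 difference, HFD minus LFD (x axis), of each measured member (rows) of 3 lists. Black bars give the additive difference over 18 arrays with its 95% interval, squares the difference under PFOS, triangles under PFNA and circles with no compound. Most cholesterol genes lie right of 0, with a PFNA triangle close to 0 for several, as for Sqle at 0.17, and most male-predominant genes lie left of 0.

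Genes of fatty acid handling had positive median differences over the 18 arrays and medians nearer to 0 without the 5 arrays apart. Fatty acid uptake and activation had a median of 0.29 over 15 genes, and −0.0089 without those arrays. In this list 7 members had a positive difference with an unadjusted p under 0.05 and none a negative one. Its mean level was 9.61 to 9.81 on the 5 arrays, against 8.39 to 8.81 on the other 13, with no overlap. Lpl, lipoprotein lipase, measured 6.51 to 9.73 (median 7.98) on the HFD and 5.91 to 9.54 (median 7.14) on the LFD, a difference of 1.09 (SE 0.33). With no compound the difference was 0.77, but 0.14 on a second Lpl probe of lower mean signal. The 5 highest values of the brighter probe, from 9.34 to 9.73, were on the 5 arrays, and its difference without them was 0.50.

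Cd36, the fatty acid translocase, also had its 5 highest values on those arrays, but its diet difference moved less without them. It measured 10.04 to 11.76 (median 10.74) on the HFD and 8.97 to 11.49 (median 10.38) on the LFD, a difference of 0.73 (SE 0.18), and 0.64 without the 5 arrays. With no compound its HFD arrays lay at 10.48, 10.04 and 10.67, above the LFD arrays at 8.97, 9.72 and 9.45. Vldlr, the receptor for very-low-density lipoprotein, differed by 1.01 (SE 0.26), and by 0.58 without the 5 arrays. For the fatty acid binding protein Fabp4 the values were 1.06 (SE 0.37) and 0.35, for the transport protein Slc27a1 0.66 (SE 0.29) and 0.030, and for Slc27a4 0.43 (SE 0.15) and 0.086.

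Lipid droplet and storage genes had a median of 0.13 over 20 members, with 5 positive and 0 negative at an unadjusted p under 0.05, and 0.072 without the 5 arrays. Cidea, a droplet fusion protein that liver expresses when it stores fat, had the largest positive difference of all genes, 2.46 (SE 0.84), or 0.93 without the 5 arrays. It measured 11.02, 9.94 and 10.86 on the HFD with PFOS, against 5.06, 4.37 and 10.99 on the LFD with PFOS. Under PFNA it measured 4.71, 5.34 and 10.58 on the HFD and 4.45, 4.47 and 5.13 on the LFD. With no compound it measured 7.89, 4.38 and 4.32 on the HFD and 4.09, 4.07 and 4.25 on the LFD. Apart from the 5 arrays, HFD with no compound replicate 1 was the only array above 5.34. Cidec, its relative, differed by 0.83 (SE 0.38), and by 0.20 without the 5 arrays.

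Fatty acid and triglyceride synthesis had a median of 0.16 over 24 genes, with 8 positive and 0 negative at an unadjusted p under 0.05, and 0.045 without the 5 arrays. Fasn, fatty acid synthase, measured 8.49 to 11.80 (median 9.28) on the HFD and 7.69 to 9.63 (median 8.57) on the LFD, a difference of 0.80 (SE 0.28). The highest value was that of HFD with PFOS replicate 1, and without the 5 arrays the difference was 0.48. Me1, malic enzyme, which supplies NADPH, differed by 0.68 (SE 0.21), and by 0.25 without them.

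The oxidation lists were high on the 5 arrays apart. Peroxisomal oxidation had a median of 0.16 over 18 genes and −0.027 without them, mitochondrial oxidation 0.097 over 17 genes and −0.039, and other PPARA targets with ketogenesis 0.18 over 13 genes and −0.0074. The mean level of the last list was 10.76 to 11.30 on the 5 arrays and 9.81 to 10.11 on the other 13. At an unadjusted p under 0.05 these lists held 4 positive and 1 negative, 2 positive and 1 negative, and 3 positive and 0 negative members. Ehhadh, the peroxisomal bifunctional enzyme and a PPARA target, measured 12.91 to 13.26 on the 5 arrays. On the other arrays it measured 11.05 to 11.70 on the HFD and 11.21 to 11.66 on the LFD, and its difference was 0.50 over all arrays and −0.079 without the 5.

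Pdk4, which restrains pyruvate oxidation, differed by 1.19 (SE 0.47) and by 0.21 without the 5 arrays, and Acot2, a mitochondrial thioesterase, by 0.74 (SE 0.27) and 0.17. Abcd2, a peroxisomal transporter of fatty acyl-CoA that is also female-predominant in mouse liver, did not follow this pattern. It measured 7.63 to 9.13 (median 8.88) on the HFD and 7.0 to 8.74 (median 8.09) on the LFD. Its difference was 0.91 (SE 0.22), and 0.85 without the 5 arrays, with 0.91 under PFOS, 0.76 under PFNA and 1.07 with no compound.

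**Figure D3:**
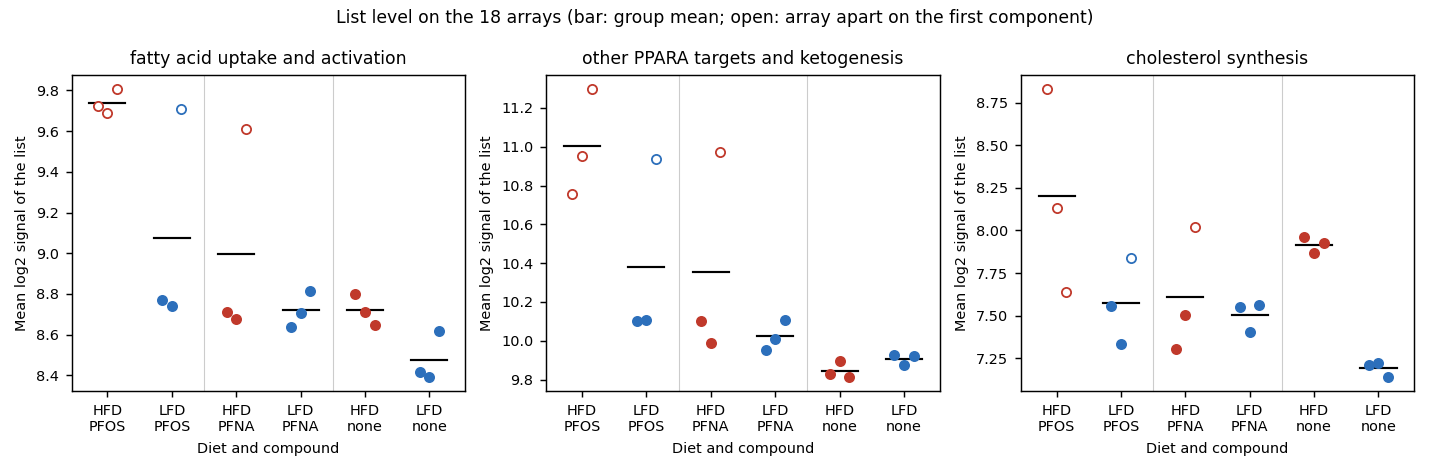
Mean log2 signal (y axis) of all measured members of 3 lists on each of the 18 arrays, by diet and compound. Red points are HFD arrays, blue points LFD arrays, bars the means of 3 arrays, and open points the 5 arrays apart. The open points of fatty acid uptake, 9.61 to 9.81, lie above every filled point, while the cholesterol list separates the diets with no compound among filled points.

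Genes that handle foreign compounds and bile acids gave mixed values. Among 24 targets of the receptors CAR and PXR, 3 had a positive and 4 a negative difference at an unadjusted p under 0.05, and the median was −0.15, or −0.014 without the 5 arrays. Cyp2b9, a cytochrome P450 that is female-predominant in mouse liver, measured 11.36 to 12.36 (median 11.96) on the HFD and 7.93 to 11.97 (median 11.30) on the LFD, a difference of 1.14 (SE 0.33). Its 3 lowest values, 7.93, 9.35 and 10.07, were those of the LFD with no compound, and the difference was 0.30 under PFOS, 0.52 under PFNA and 2.60 with no compound. Cyp2c54, another P450, differed by −0.68 (SE 0.21), and by −0.32 without the 5 arrays. Of 15 measured female-predominant genes, 9 had a positive and 6 a negative difference, and only Cyp2b9 and Abcd2 had an unadjusted p under 0.05. The median of that list was 0.037, or 0.14 without the 5 arrays. By exposure it was −0.037 under PFOS, −0.033 under PFNA and 0.13 with no compound.

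Targets of NRF2, the sensor of oxidative stress, had a median of 0.13 over 21 genes, and 0.15 without the 5 arrays. At an unadjusted p under 0.05 there were 5 positive and 0 negative members. By exposure the median was 0.017 under PFOS, −0.013 under PFNA and 0.34 with no compound. The direction was the same in all 3 exposures for 6 of the 21. Ugdh, which makes the donor for glucuronidation, differed by 0.50 (SE 0.13) and by 0.40 without the 5 arrays. Abcc4, an efflux pump, differed by 0.66 (SE 0.21) and by 0.19 without them. Bile acid synthesis and transport had 4 negative members at that level among 21, and a median of −0.12, or −0.034 without the 5 arrays. Of these, Slco1a4 differed by −1.16 (SE 0.54), and by −0.027 without the 5 arrays.

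Lists of plasma proteins and immunity held a few members each past that level. Complement and coagulation had 5 negative members of 25 at an unadjusted p under 0.05, among them C8b, C6 and F11, and a median of −0.10, or −0.018 without the 5 arrays. The mean level of that list was 9.84 to 10.01 on the 5 arrays and 10.22 to 10.49 on the other 13. Interferon-stimulated genes had 4 negative and 0 positive members of 23 at that level. Their median was −0.14 over all arrays, 0.017 without the 5 arrays and 0.11 with no compound. Irf7, an amplifier of interferon responses, measured 6.62 to 8.5 (median 7.59) on the HFD and 6.97 to 8.82 (median 8.30) on the LFD, a difference of −0.75 (SE 0.21), or −0.35 without the 5 arrays.

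The acute phase list had 1 positive and 1 negative member of 27 at an unadjusted p under 0.05, and a median of 0.078, or 0.21 without the 5 arrays. Apcs, serum amyloid P, measured 6.96 to 8.97 (median 8.0) on the HFD and 6.82 to 8.14 (median 7.18) on the LFD, a difference of 0.73 (SE 0.20), or 0.69 without the 5 arrays. Saa2, serum amyloid A, differed by −0.19 under PFOS, 0.99 under PFNA and 2.13 with no compound, and its average of 0.98, or 1.69 without the 5 arrays, had an interval over 18 arrays that included 0. Of the cell cycle genes, 6 of 28 had a positive and none a negative difference at that level, and the median was 0.12, or 0.043 without the 5 arrays. Among them Cdkn1a, the cell cycle inhibitor p21, differed by 0.52 (SE 0.20), and Mcm6, a replication helicase subunit, by 0.50 (SE 0.17) and by 0.092 without the 5 arrays.

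Of 23 genes of endoplasmic reticulum stress, 11 had a positive and 12 a negative difference, with a median of −0.0011, or 0.092 without the 5 arrays. Of these genes 2 had an unadjusted p under 0.05, which is 8.70% of the list, beside 8.91% of all genes. They were Ddit3, also known as CHOP, at 0.42 (SE 0.13) and Trib3 at 0.34 (SE 0.13), and Trib3 was −0.030 under PFNA. Of 19 immediate-early genes, 7 had a positive and 12 a negative difference, with a median of −0.067, or 0.022 without the 5 arrays. In that list 2 positive members and 1 negative member had an unadjusted p under 0.05, and Btg2, an antiproliferative gene, had the largest difference at 0.43 (SE 0.11). Nr4a1, a nuclear receptor of the same list, differed by −0.29 (SE 0.16). The other lists are shown in the plot of list medians. Lipg, the endothelial lipase, at 0.51 (SE 0.15) and Per1, a clock gene, at −0.48 (SE 0.19) were the members of largest difference past that level in the lipoprotein and, after Cry1, the clock lists. The clock list held 2 negative members of 18 at that level, with a median of −0.067, or 0.024 without the 5 arrays, and the difference of Per1 was −0.036 without the 5 arrays.

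Markers of other cell types are counted here beside the 8.91% of all genes past the unadjusted level. The share was 13.0% of the stellate cell and fibrosis list, 4.76% of the Kupffer cell and macrophage list and 8.33% of the neutrophil list. In the erythroid list of 4 genes it was 25.0%. At an unadjusted p under 0.05 there were 2 positive and 1 negative of 23 stellate cell and fibrosis genes, 1 positive of 21 Kupffer cell and macrophage genes, 1 negative of 12 neutrophil genes, 1 negative of 4 erythroid genes, and none of 17 lymphocyte, 15 endothelial or 9 cholangiocyte genes. The mean level of the stellate list was 6.20 to 7.12 on the HFD and 6.18 to 6.62 on the LFD, and its median difference was −0.080 under PFOS, −0.027 under PFNA and 0.41 with no compound. Over all exposures the median was 0.097, and 0.25 without the 5 arrays. Col1a1, a fibrillar collagen, measured 8.41, 6.22 and 6.85 on the HFD with no compound and 5.83, 6.26 and 6.21 on the LFD with no compound. That first array was the highest of all 18 for Col1a1.

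Adipocyte markers had a mean level of 5.58 to 6.12 on the HFD and 5.41 to 6.06 on the LFD, and the 2 of 10 that were positive at that level were Fabp4 and Cidec. Over these 10 genes 6 differences were positive and 4 negative, with a median of 0.014. On the 5 arrays apart the list lay at 6.05 to 6.12, against 5.41 to 5.91 on the other 13. Fabp4 measured 8.73 to 9.36 on the 5 arrays and 5.48 to 7.10 on the others, and Cidec 10.14 to 10.49 and 6.74 to 9.07. Both genes also belong to the lists of fatty acid uptake or lipid droplets. The part of adipocyte RNA in the differences of the fatty acid genes was not tested. Exocrine pancreas markers lay at 3.88 to 4.34 on the HFD and 3.98 to 4.26 on the LFD, below the median of the array, and 1 of 9 had a positive difference at that level, Cpb1 at 0.32. Of 13 hepatocyte markers, 1 had an unadjusted p under 0.05, Cps1 of the urea cycle at −0.22 (SE 0.11). Their mean level was 12.17 to 12.21 on the 5 arrays and 12.30 to 12.49 on the other 13.

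In the zones of the liver lobule, 4 of 12 periportal and 2 of 14 pericentral genes had a negative difference with an unadjusted p under 0.05, and none a positive one. The median was −0.17 for the periportal and −0.055 for the pericentral list, and −0.071 and 0.0015 without the 5 arrays. Pigr, the immunoglobulin receptor, measured 10.61 to 10.88 on the 5 arrays and 11.96 to 12.24 on the others, so its difference of −0.49 over all arrays was 0.0052 without them. Cyp1a2, a pericentral P450, differed by −0.43 (SE 0.13), and by −0.22 without them.

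**Figure D4:**
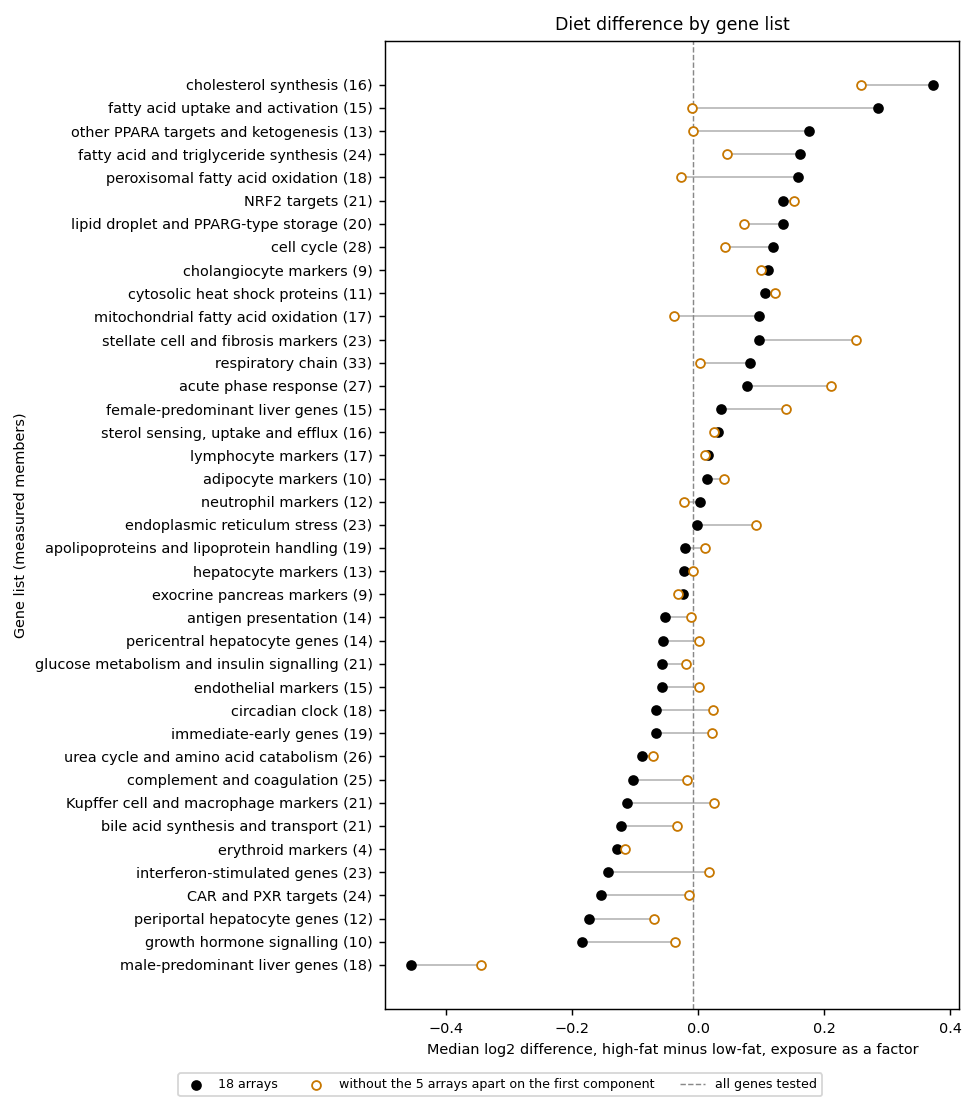
Median log2 difference, HFD minus LFD, of the measured members of 39 gene lists (rows, number of members in brackets). Black points use all 18 arrays, open points leave out the 5 arrays apart on the first component, and the dashed line is the median of all genes, −0.0078. Cholesterol synthesis, at 0.37 and 0.26, and the male-predominant genes, at −0.45 and −0.34, are at the ends of both settings, with stellate cell markers at 0.25 next to the cholesterol list without the 5 arrays.

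Averaging over exposures describes each exposure only as far as the diet differences resemble each other. In a model with 1 mean per group, limma's F test of the diet-by-exposure interaction called 0 of 34472 probes (lowest adjusted p = 0.976), and 1677 probes (4.86%) had an unadjusted p under 0.05. The 3 diet differences come from different arrays. Across 22180 genes, which are not independent replicates, the correlation of the diet differences was 0.359 between PFOS and PFNA, 0.067 between PFOS and no compound, and 0.018 between PFNA and no compound. The direction was the same in all 3 exposures for 6742 genes, 30.4% of them. Directions unrelated between exposures would also agree for part of the genes, so this share alone does not show a shared diet difference.

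The interaction depended on 2 arrays. Without LFD with PFOS replicate 3 and HFD with PFNA replicate 3, limma called 41 probes for interaction, 31 of them assigned to 1 gene. The choice of these 2 arrays rests on their own signals, and without them the arrays apart on the first component are those of HFD with PFOS alone, so a difference under PFOS in the genes of that component follows from the choice of arrays. The values are given as a description. In 40 of the 41 the largest of the 3 diet differences was that under PFOS, and in 28 of these 40 it was positive. Sptlc3, a subunit of the enzyme that starts sphingolipid synthesis, led with diet differences of 4.88 under PFOS, −0.36 under PFNA and 0.55 with no compound. Fabp4 differed there by 2.77 under PFOS, −0.18 under PFNA and 0.76 with no compound, Ehhadh by 1.64, 0.20 and −0.30, and Pigr by −1.55, −0.022 and 0.027. The correlation between PFOS and PFNA across genes was 0.091 without the 2 arrays.

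In the cholesterol list the median difference was 0.56 under PFOS, 0.14 under PFNA and 0.40 with no compound, and in the male-predominant list it was −0.50, −0.20 and −0.39. The direction was the same in all 3 exposures for 11 of 16 and for 12 of 18 members. For fatty acid uptake the medians were 0.62 under PFOS, 0.26 under PFNA and 0.033 with no compound. Other lists had medians of opposite sign between exposures. In the same order, the medians were −0.16, −0.033 and 0.32 for endoplasmic reticulum stress and −0.19, −0.03 and 0.37 for the acute phase. Those of the Kupffer cell and macrophage markers were −0.19, −0.28 and 0.30. For such lists an average near 0 does not describe the single exposures. The differences between exposures were not called for any member of these lists over 18 arrays.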

How the data were processed

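Total RNA of 18 liver samples was measured on 18 expression arrays. The authors deposited 1 log2 value per probe and array. Per the submitters' processing notes the tool was Transcriptome Analysis Console, with no version named. No label states the log base, so log2 rests on the range of the values. Background correction and summarization are not stated. Probes were named by the platform annotation. Of the probes 23521 carried a single symbol, covering 22180 genes, 1814 carried several and 9137 had no symbol. Genes of the lists without a probe of their own were not analysed here.

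Differences came from limma 3.58.1 in R 4.3.3 (lmFit and eBayes), with diet and exposure as additive terms, 14 residual and 5.15 prior degrees of freedom, and Benjamini-Hochberg adjustment over 34472 probes. Intervals are 95% intervals of that fit, and no filter on signal was used. The number of arrays limits the precision. Any 2 arrays correlated at 0.975 to 0.991 and shared at most 1.83% of values exactly. The comparison, the 39 gene lists (751 genes, 665 measured) and the naming rule were chosen with earlier results of these data known. The rule took called genes by size, otherwise the 10 smallest p in each direction, and up to 4 called members of each list or else its 2 largest differences. Genes of the cholesterol, male-predominant, growth hormone and fatty acid uptake lists beyond these 2 were named after their values were seen, as were the leading genes of the interaction without 2 arrays and Ghr. Same-numbered replicates correlated at −0.012 to 0.18 in their deviations, over 0.1 in 1 of 9 pairs, and differently numbered ones at −0.151 to 0.093. With 3 arrays per group these values cannot exclude a pairing or batch by number, and the titles state none. Alternatives covered normalization, dim probes, the model, variance moderation, array weights, the replicate block and left-out arrays or exposures. The scripts were tested on simulated data.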

Additional observations from a re-analysis of the deposited data

Results flagged for a closer look

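Within each diet, an array was noted where its gap to the nearest other array, divided by the range of the 9 arrays, exceeded Dixon's 95% critical value. Chance alone is expected to do this in about 5% of groups, and 42 of 240 groups tested did (17.5%). In 28 of the 42 the array was LFD with PFOS replicate 3, one of the 5 arrays apart, which scored 32.88 on the first component, against −10.34 for the nearest LFD array.

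On that array, genes of fatty acid uptake, storage and oxidation stood above the other LFD arrays. Cidea reached 10.99, Lpl 9.54, Fabp4 9.13, Vldlr 6.55, Slc27a1 9.66, Slc27a4 7.65, Ehhadh 13.17, Eci1 10.89, Etfb 10.57, Pdk4 10.55, Acot2 12.93 and the electron carrier Cycs 11.09. Genes of lipid and sterol synthesis did so as well, with Fasn at 9.63, Me1 at 10.76, Fdps at 7.84, Dhcr7 at 8.45 and Hsd17b7 at 8.43, and so did Apcs at 8.14. Other genes stood below the other LFD arrays there. These were Slco1a4 at 4.02, Pigr at 10.75, Gulo at 9.70, Ugt2b1 at 10.70, Scarb1 at 9.49, Prodh at 8.13, Irf7 at 6.97, Cyp1a2 at 10.71 and Igfals at 7.60.

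The other 14 lay elsewhere. HFD with PFOS replicate 1 was highest of the HFD arrays for Fasn at 11.80, Nsdhl at 9.40 and Pmvk at 8.17, and HFD with PFNA replicate 1 was lowest for Abcd2 at 7.63. HFD with no compound replicate 1 was highest for Col1a1 at 8.41 and Muc1 at 6.04, and replicate 2 for Cpb1 at 3.09. LFD with PFOS replicate 2 was highest of the LFD arrays for Muc1 at 7.12, Cd4 at 5.15 and Ltf at 4.96. LFD with no compound replicate 3 was highest for the stress and early-response genes Ddit3 at 6.79, Hspa1a at 5.88 and Nr4a1 at 6.50. LFD with no compound replicate 2 had the highest median signal of the LFD arrays, 4.59.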

How the results depend on the processing

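The single diet call, probe 17546790, was kept under quantile normalization, the filter on dim probes, 1 mean per group, the intensity trend, array weights, without the 2 arrays apart from their groups, and without each array in turn, where the count was 1 to 1, the difference 0.721 to 0.824 and the highest adjusted p 0.0142. With the replicate block the count was 1 and the difference 0.77 and it was still called, and the titles do not say that same-numbered arrays are paired. The count of diet calls was 0 without the no-compound groups, without the PFOS groups, without the PFNA groups, within PFOS, within PFNA and without the 5 arrays apart. Within the no-compound groups it was 1, a different probe. In these settings, which use fewer arrays, probe 17546790 differed by 0.82 without the no-compound groups, 0.755 without PFOS, 0.74 without PFNA, 0.807 within PFOS, 0.837 within PFNA, 0.673 within no compound and 0.742 without the 5 arrays, with adjusted p-values from 0.112 to 0.997. The interaction count was 41 without the 2 arrays apart from their groups and 0 to 0 without each array in turn; the cause was not tested. The analysis without the 5 arrays was chosen after seeing the data, and the 2 arrays were chosen from earlier results of these data.

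Of 117 named genes, none was called for diet in any setting, and these turned direction. Within no compound the values were −0.30 for Ehhadh, −0.030 for Eci1, −0.040 for Etfb, −0.0067 for Acot2, 0.070 for Gulo, 0.027 for Pigr, 0.057 for Marco, 0.20 for Cd79a, 0.0033 for Eng, −0.30 for Krt23, 0.70 for Muc1, −0.21 for Elovl3 and −0.34 for Cyp2d9. Within PFNA they were −0.070 for Sort1, 0.20 for Igfbp2, −0.020 for Pfkfb3, −0.030 for Trib3, −0.15 for S100a9, −0.11 for Nsdhl and 0.060 for Moxd1. Within PFOS they were 0.59 for Got1, −0.19 for Saa2 and −0.057 for Col1a1. Without the no-compound groups they were 0.045 for Igfbp2, 0.235 for Got1 and −0.053 for S100a9, without PFOS 0.22 for Muc1 and −0.11 for Cyp2d9, and without PFNA −0.030 for Cyp2d9. Without the 5 arrays they were −0.079 for Ehhadh, 0.0052 for Pigr, −0.14 for Krt23, 0.33 for Muc1, −0.11 for Tfrc, −0.066 for Elovl3 and −0.18 for Cyp2d9. Leaving out single arrays turned Muc1 (−0.33 to 0.093, positive without LFD with PFOS replicate 2), Ebp (0.017 without HFD with no compound replicate 1) and Cyp2d9 (−0.035 to 0.072).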
